A study of Mus musculus with 4 samples.

Results

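Solute carriers are the membrane proteins that move nutrients, ions and metabolites into and out of cells and organelles. The genes described here are the solute carrier genes expressed in mouse Th17 cells. They were chosen by name (Slc followed by a number), protein-coding biotype and level, with an average across the 4 libraries of 1 FPKM or more. FPKM is the deposited unit, fragments scaled by gene length and by the total of the library. Of 371 genes with such a name 1 was left out, and 150 of the remaining 370 met the rule, out of 52636 genes in the table. Another 220 had a mean under 1 FPKM, and 105 of these had no read in any library. Substrate classes were assigned by family, from general knowledge. A class can therefore hold genes with no known substrate, such as Slc35e4, or with another substrate, such as Slc35b1. The mean level chose these genes, so the levels are given as a description and only the comparison of the genotypes was tested. Closest above the threshold were Slc25a47 at 1.04, Slc25a45 at 1.14 and Slc13a3 at 1.21 FPKM. Closest below it were Slc26a11 at 0.990, Slc25a42 at 0.896 and Slc25a23 at 0.872 FPKM. For 3 genes, Slc2a8, Slc13a3 and Slc25a47, a single genotype lifted the mean to the threshold. The fewest reads behind any of the 150 genes in a library were 44.

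Most solute carriers are either exchangers, which swap one solute for another, or symporters, which use the sodium or proton gradient to pull a solute in. Activated T cells take up large amounts of glucose, glutamine, leucine and other amino acids, release lactate, and use the carriers of the inner mitochondrial membrane to pass nucleotides, phosphate and organic acids between mitochondria and cytosol. Other families load zinc, nucleotide sugars or sugar phosphates into the endoplasmic reticulum and the Golgi. Th17 cells are the helper T cells that make interleukin 17.

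RNA was sequenced from cells of 2 genotypes on the C57BL/6 strain, labelled PP2A WT and PP2A cKO (called WT and cKO here), with 2 libraries each. PP2A is a phosphatase of serine and threonine residues, and the labels name neither the subunit gene that was altered nor the Cre line. Naive cells were grown for 2 days with irradiated autologous antigen presenting cells, 3 for each T cell. All cultures received anti-CD3 and anti-CD28 at 2 µg/ml each, TGF-β1 at 2 ng/ml and IL-6 at 20 ng/ml, plus neutralizing antibodies to IL-4 and IFN-γ at 10 µg/ml each. Both genotypes were then stimulated with PMA (50 ng/ml) and ionomycin (500 ng/ml) for 4 h, so no unstimulated cells were compared. The libraries are called biological replicates, without a word on whether each came from its own animal, so the p-values below reflect only how far these libraries spread, which may be technical.

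The libraries held 18517487 to 20387948 gene-assigned reads. None of the 4 catalytic and scaffold genes of PP2A passed limma's test (Ppp2ca had 42.2 and 50.1 FPKM in WT and 41.8 and 34.5 FPKM in cKO, adjusted p = 0.36), so the direction of each difference rests on the labels. T cell genes were abundant, with Cd4 at 104 to 128 FPKM. The summed level of 6 B cell genes was at most 0.772 FPKM in any library, that of 8 macrophage or dendritic cell genes at most 1.21, that of 6 erythroid genes at most 1.29 and that of 4 NK cell genes at most 0.105. Siglech, Hbb-bt, Ncr1 and Klrb1c were at 0 in every library. The 11 T cell genes summed to 2301 and 2296 FPKM in WT and 2818 and 2770 FPKM in cKO. Of these 7 lay above WT in both cKO libraries, 2 (Cd3e and Cd247) lay below, and Trac and Trbc1 overlapped. Over all tested genes 27.2% lay above and 28.7% below. limma called none of the 11, with 4 higher and 1 lower at an unadjusted p under 0.05, and voom called 2 higher, Cd2 and Cd5. Over all tested genes 9.56% were higher and 10.3% lower at that unadjusted p, and voom called 2.69% higher. Cd5 had the widest difference, with 378 and 318 FPKM in WT and 561 and 675 FPKM in cKO (voom, adjusted p = 0.0236), and the part of these genes in the results below was not tested. Of the 2 CD8 genes, Cd8b1 had 7.06 and 7.91 FPKM in WT and 9.03 and 9.84 FPKM in cKO, and Cd8a was at most 0.548. In such bulk RNA, fewer cells of a type and less RNA per cell cannot be told apart. The 2 cKO libraries stood apart from each other: their difference followed the GC content of transcripts across the 10562 genes tested (Spearman's rho = -0.53). Between the WT libraries rho was 0.12.

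Together the 150 genes took 0.970% and 0.956% of the summed FPKM in WT and 0.797% and 0.912% in cKO. Their 10 highest genes held 42.4% to 44.4% of that share in each library. Only 4 reached a mean of 100 FPKM, 61 lay between 10 and 100 FPKM and 85 between 1 and 10 FPKM. The highest was Slc25a5, the ADP/ATP carrier of the mitochondrial inner membrane, at 453 and 473 FPKM in WT and 490.0 and 459 FPKM in cKO, so the groups overlapped. Next came the glutamine carrier Slc1a5 at 166 and 164 FPKM in WT and 132 and 183 FPKM in cKO. Slc7a5, the light chain of the leucine exchanger, had 176 and 161 FPKM in WT and 113 and 168 FPKM in cKO. Slc25a3, the mitochondrial phosphate carrier, had 109 and 105 FPKM in WT and 116 and 111 FPKM in cKO. All 4 move solutes that dividing cells use in bulk. In both Slc1a5 and Slc7a5, cKO replicate 1 was the lowest of the 4 libraries, while cKO replicate 2 lay above both WT libraries or between them. Slc3a2, the heavy chain that brings Slc7a5 to the surface, had 72.0 and 67.8 FPKM in WT and 77.1 and 87.5 FPKM in cKO, higher in both cKO libraries (0.23 ± 0.11 on the log2 scale, limma, adjusted p = 0.322). Of the carriers looked for by name, Slc40a1, the iron exporter, had no read, the erythroid anion exchanger Slc4a1 had 0 to 2 reads, and Slc11a1 had 3 to 9. The cystine carrier Slc7a11 had 5 to 9 reads, and the lysosomal arginine sensor Slc38a9 had a mean of 0.330 FPKM.

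**Figure D1:**
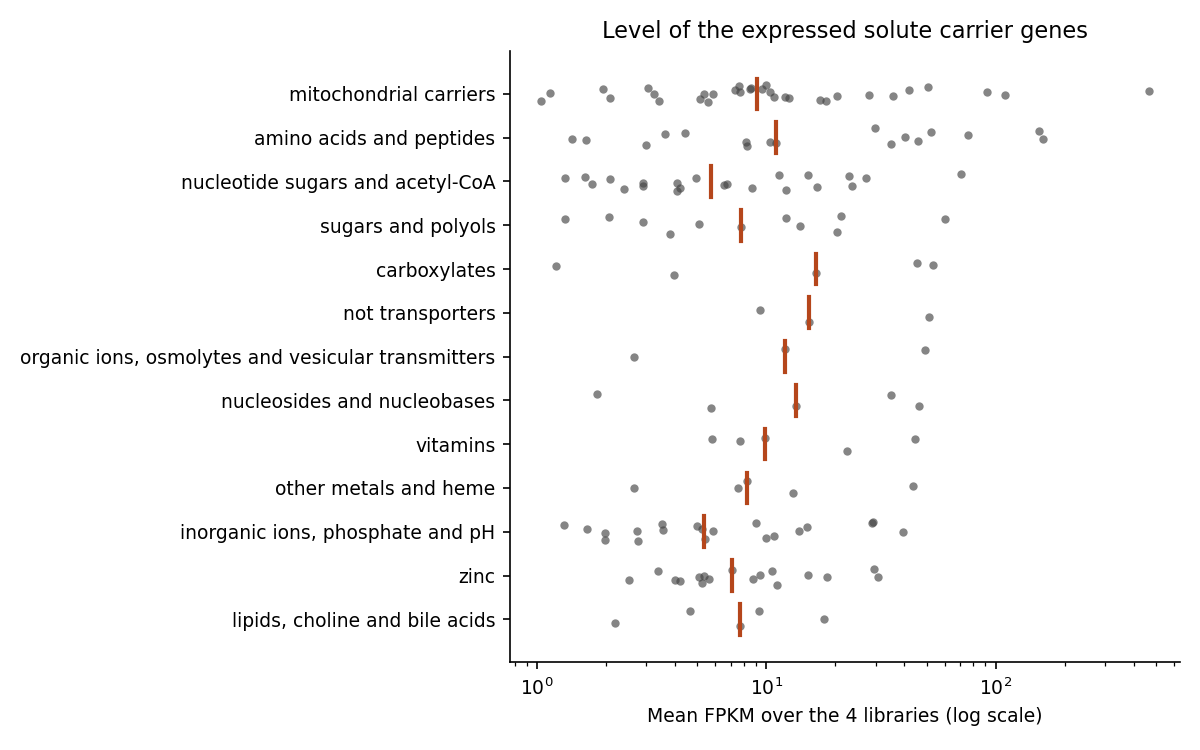
Mean FPKM over the 4 libraries (x axis, log scale) of each expressed solute carrier gene (points) in 12 substrate classes and in a group of 3 genes that bear the name but encode no transporter (y axis), with the class median as a bar. Slc25a5 stands alone at the right, and amino acid and mitochondrial carriers hold the 4 genes above 100 FPKM.

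No expressed solute carrier gene passed the test for a difference between the genotypes. The test was limma on log2(FPKM + 1), two-sided, with p-values adjusted over all 10562 genes at 0.05. It called 0 of 150 higher in cKO, where 0.814% of all tested genes were, and 0 of 150 lower, where 0.256% were. The lowest adjusted p was 0.055, for Slc25a10. A log2 fold change here is the difference of the mean log2(FPKM + 1), cKO minus WT, which understates the change of low genes, and its error is the SE of that fit. At an unadjusted p under 0.05 there were 9 higher (6.0% of the 150, against 9.56% of all tested genes) and 23 lower (15.3%, against 10.3%). A test of the reads recovered from the FPKM values, limma's voom, called 2 higher (2.69% of all genes) and 4 lower (2.49% of all genes). The 2 were Slc15a3 and Slc25a24, and the 4 were Slc25a10, Slc36a4, Slc37a4 and Slc43a2. An exact permutation test of 1 gene cannot go below 0.333 with 2 libraries against 2.

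More of the 150 genes lay below WT than above it. Both cKO libraries were below both WT libraries for 56 genes (37.3%, against 28.7% of all tested genes) and above both for 29 (19.3%, against 27.2%), and the other 65 overlapped. The 150 genes are all protein-coding, and of the 9231 tested protein-coding genes 31.1% lay below and 26.6% above. The class comparisons further on use all tested genes. The median log2 fold change was -0.065, beside -0.0034 over all tested genes and -0.015 over the protein-coding ones. That shift came mostly with one library: against the WT mean, the median was -0.13 in cKO replicate 1 and -0.011 in cKO replicate 2. In cKO replicate 1, 101 of the 150 genes lay under the WT mean (67.3%, against 50.5% of all tested genes). In cKO replicate 2, 76 did (50.7%, against 50.5%), close to the share over all genes. Among tested protein-coding genes 52.5% lay under the WT mean in cKO replicate 1 and 52.4% in cKO replicate 2.

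**Figure D2:**
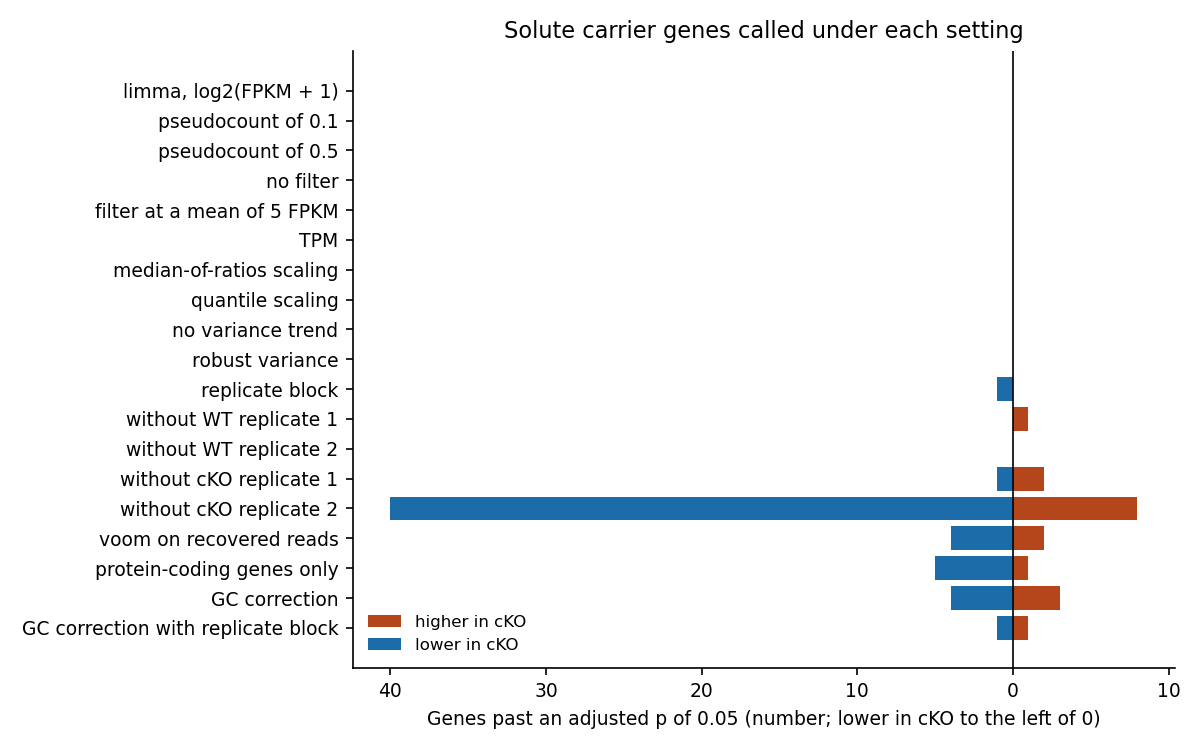
Number of the 150 genes past an adjusted p of 0.05 (x axis, lower in cKO to the left of 0, higher to the right) under limma on log2(FPKM + 1) and 18 other settings (y axis). Without cKO replicate 2 the calls are 40 lower and 8 higher, and the next most in one direction are 5 lower, among protein-coding genes only.

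GC content moved with the difference of cKO replicate 1. Across the 150 genes, Spearman's rho with transcript GC content was -0.46 for cKO replicate 1 minus the WT mean and 0.093 for cKO replicate 2 minus the WT mean (genes share these libraries and are not replicates). Over all tested genes rho was -0.38 and 0.035 for the same differences, so the trend was not particular to solute carriers. In the 50 genes lowest in GC the median difference was 0.047 in cKO replicate 1 and -0.067 in cKO replicate 2. In the 50 highest it was -0.32 in cKO replicate 1 and 0.0054 in cKO replicate 2. The 32 genes for which cKO replicate 1 alone was under both WT libraries had a median GC content of 55.05%, and the 12 for which cKO replicate 2 alone was under both had 42.7%. For 21 genes, Slc1a5 and the anion exchanger Slc4a2 among them, cKO replicate 1 lay under and cKO replicate 2 above both WT libraries. These counts were not made over all tested genes, so they do not set solute carriers apart. With cKO replicate 2 left out, limma called 40 of the 150 lower and 8 higher, against 15.3% lower and 13.2% higher over all tested genes. The one cKO library is then assumed to vary as the WT libraries do. The part of GC content in these differences was not tested beyond a correction of each library for its trend. With it, limma called 4 genes lower (Slc25a10, Slc25a15, Slc36a4 and Slc37a4) and 3 higher (Slc2a6, Slc25a24 and Slc35e4), where 2.28% and 2.66% of all genes were called. Among protein-coding genes only, 5 were called lower (2.61% of those genes) and 1 higher (2.81%), namely Slc2a8, Slc25a10, Slc36a4, Slc37a4 and Slc43a2 lower and Slc25a24 higher. Slc2a8 met the threshold of 1 FPKM only through WT, so its lower call is tied to its selection.

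**Figure D3:**
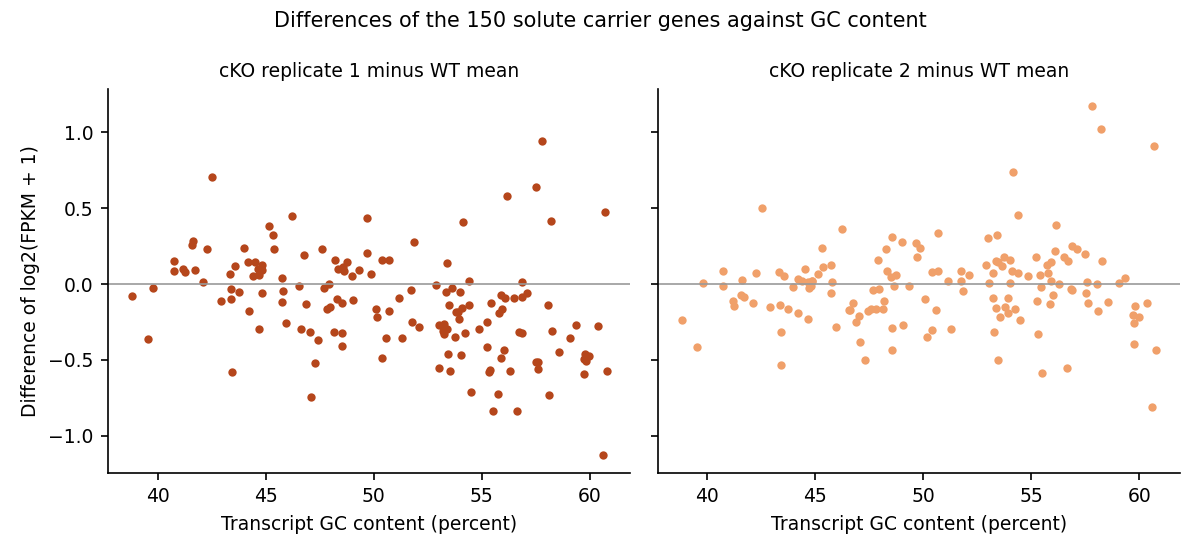
Difference of log2(FPKM + 1) from the WT mean (y axis) against transcript GC content in percent (x axis) for the 150 genes, with cKO replicate 1 on the left and cKO replicate 2 on the right. The points fall with GC content on the left (rho = -0.46) and show no such slope on the right (rho = 0.093).

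A change of at least 1.5-fold between the genotype means was found for 12 of the 150 genes, 7 lower and 5 higher in cKO. Their groups did not overlap. The share of all tested genes that changed as much was not counted, so 12 cannot be called many or few. The 7 include Slc2a8 and the 5 include Slc13a3, whose directions were fixed by how they met the threshold. Widest by the ratio of the means was Slc25a10 (chromosome 11, 120491840 to 120499187, GRCm38), the carrier that exchanges malate and succinate for phosphate across the mitochondrial inner membrane. It had 6.66 and 7.51 FPKM in WT and 2.69 and 3.61 FPKM in cKO. The means of 7.09 ± 0.607 and 3.15 ± 0.650 FPKM (SD, n = 2) differed by -0.97 ± 0.14 (log2, limma, adjusted p = 0.055, voom, adjusted p = 0.0158). Both cKO libraries were far below both WT libraries, further than the replicates of a genotype were from each other. Slc37a4 (chromosome 9, 44396852 to 44402968), which brings glucose 6-phosphate into the endoplasmic reticulum, had 10.1 and 9.60 FPKM in WT and 5.08 and 6.24 FPKM in cKO (-0.71 ± 0.12, limma, adjusted p = 0.0636, voom, adjusted p = 0.0258). Slc36a4 (chromosome 9, 15709738 to 15743361), a carrier of proline and tryptophan, had 9.85 and 10.0 FPKM in WT and 6.32 and 6.56 FPKM in cKO (-0.56 ± 0.084, limma, adjusted p = 0.0573, voom, adjusted p = 0.0213). Its replicates were close to each other in both genotypes. In the other direction, Slc25a24 (chromosome 3, 109123149 to 109168457), the calcium-regulated carrier of ATP-magnesium and phosphate in mitochondria, had 7.80 and 7.64 FPKM in WT and 13.2 and 11.3 FPKM in cKO (0.60 ± 0.10, limma, adjusted p = 0.0713, voom, adjusted p = 0.0313). Slc15a3 (chromosome 19, 10839727 to 10859362), a lysosomal carrier of histidine and short peptides, had the highest fold change, 2.16-fold, with 9.03 and 4.88 FPKM in WT and 13.8 and 16.3 FPKM in cKO (1.06 ± 0.26, limma, adjusted p = 0.122, voom, adjusted p = 0.0454). WT replicate 1 lay about midway between WT replicate 2 and cKO replicate 1, and Slc15a3 overlaps Tmem132a, whose reads cannot be told from its own without the strand. Slc2a6, a sugar carrier of lysosomes, had 11.2 and 9.24 FPKM in WT and 13.9 and 21.8 FPKM in cKO, and Slc35e4, which has no known substrate, had 2.94 and 2.77 FPKM in WT and 4.35 and 6.23 FPKM in cKO. In both, cKO replicate 2 was the higher of the cKO libraries, and both passed limma's test once GC content was corrected or cKO replicate 1 was left out, when 2 genes were called higher (1.4% of all genes) and 1, Slc25a10, lower (1.08%).

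**Figure D4:**
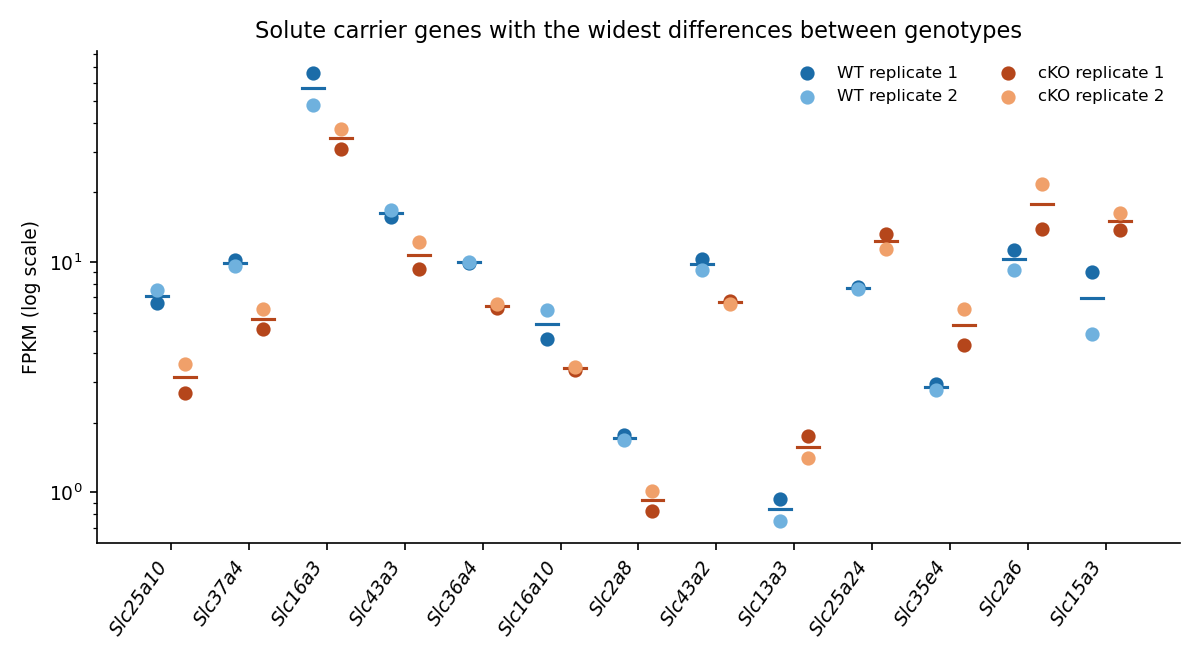
FPKM (y axis, log scale) of 13 solute carrier genes in each library, WT in blue and cKO in orange, with the genotype mean as a bar: the 12 with a 1.5-fold difference and Slc43a2, called by voom. The groups are separate for every gene shown, and the cKO replicates differ most for Slc2a6 and Slc35e4.

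The bases before the start of 4 of these genes are shown because solute carriers have well-known regulators whose sites can be searched for: Myc and its relatives bind the E-box (CACGTG), Atf4 the amino acid response element (TGATGNAA), Nrf2 the antioxidant response element (TGACNNNGC) and Mtf1 the metal response element (searched in the loose form TGCNCNC). Slc25a10 and Slc37a4 had the lowest log2 fold changes. Slc30a1, the zinc exporter, is a textbook target of Mtf1, and Slc16a1, the lactate carrier, is one of Myc. All lie on the plus strand of GRCm38.p6 (RefSeq starts), and capitals mark a match to any of the 4 motifs on either strand. Each run ends before the gene's start in the deposited table.
Slc25a10, chr11:120491587-120491836: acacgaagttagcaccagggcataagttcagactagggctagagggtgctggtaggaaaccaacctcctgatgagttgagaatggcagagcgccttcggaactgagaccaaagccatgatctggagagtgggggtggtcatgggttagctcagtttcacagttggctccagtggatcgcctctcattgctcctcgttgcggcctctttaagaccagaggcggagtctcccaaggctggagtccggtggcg
Slc37a4, chr9:44396696-44396851: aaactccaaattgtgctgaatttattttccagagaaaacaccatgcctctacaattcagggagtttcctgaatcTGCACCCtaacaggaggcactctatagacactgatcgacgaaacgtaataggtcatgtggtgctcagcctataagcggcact
Slc30a1, chr1:191906531-191906766: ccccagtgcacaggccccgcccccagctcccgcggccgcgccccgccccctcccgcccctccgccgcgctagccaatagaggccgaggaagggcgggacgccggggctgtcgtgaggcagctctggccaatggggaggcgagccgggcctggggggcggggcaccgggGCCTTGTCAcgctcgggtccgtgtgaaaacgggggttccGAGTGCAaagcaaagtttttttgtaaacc
Slc16a1, chr3:104638414-104638663: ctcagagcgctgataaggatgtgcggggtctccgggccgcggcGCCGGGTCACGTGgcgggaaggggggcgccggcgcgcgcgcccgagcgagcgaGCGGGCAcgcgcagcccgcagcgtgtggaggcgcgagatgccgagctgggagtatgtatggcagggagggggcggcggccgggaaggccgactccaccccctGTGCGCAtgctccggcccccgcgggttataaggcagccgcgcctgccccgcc
The Slc25a10 stretch held no match. That of Slc37a4 held 1 metal response element, that of Slc30a1 held 1 antioxidant and 1 metal response element, and that of Slc16a1 held 1 E-box overlapping an antioxidant response element and 2 metal response elements. Over the 250 bases before the start, an E-box was found in 16 of the 114 genes with a RefSeq promoter (14.0%), beside 8.94% of 7438 tested genes. The antioxidant response element was found in 21 (18.4%, beside 12.05%), the amino acid response element in 2 (1.75%, beside 1.84%) and the metal response element in 55 (48.2%, beside 52.2%). A match describes the letters and is not a bound site. Myc itself had 301 and 260.1 FPKM in WT and 257 and 358 FPKM in cKO, with overlapping groups (limma, adjusted p = 0.747). Its level was highest in cKO replicate 2, and cKO replicate 1 lay just under WT replicate 2.

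Carriers of amino acids and peptides had the lowest class median among the classes. Of 58 such genes 17 were expressed, with a median log2 fold change of -0.26. The class median was -0.31 in cKO replicate 1 and -0.035 in cKO replicate 2, and -0.19 after the GC correction. Both cKO libraries were below WT for 9 of the 17 (52.9%, against 28.7% of all tested genes) and above for 2, Slc3a2 and Slc15a3 (11.8%, against 27.2%). The sodium-coupled glutamine carriers Slc38a1 and Slc38a2 were lower in both cKO libraries, with close replicates. Slc38a1 had 44.4 and 45.1 FPKM in WT and 35.6 and 36.5 FPKM in cKO (-0.30 ± 0.09, limma, adjusted p = 0.161). Slc38a2 had 49.7 and 51.0 FPKM in WT and 40.8 and 42.8 FPKM in cKO (-0.26 ± 0.093, limma, adjusted p = 0.216). Slc7a1, the main carrier of arginine and lysine, had 61.0 and 55.5 FPKM in WT and 45.3 and 47.1 FPKM in cKO (-0.33 ± 0.10, limma, adjusted p = 0.173). For these 3 genes the cKO replicates lay close to each other, cKO replicate 2 being nearly as low as cKO replicate 1. Slc43a2, which lets large neutral amino acids leave or enter down their gradient, had 10.3 and 9.17 FPKM in WT and 6.79 and 6.57 FPKM in cKO (-0.48 ± 0.096, limma, adjusted p = 0.0818, voom, adjusted p = 0.0353). Slc16a10, which carries aromatic amino acids, had 4.60 and 6.15 FPKM in WT and 3.41 and 3.48 FPKM in cKO, a 1.56-fold lower mean, with WT replicates further apart than the cKO replicates (limma, adjusted p = 0.142). Slc7a6, another light chain of Slc3a2, had 31.0 and 30.6 FPKM in WT and 27.6 and 30.01 FPKM in cKO (limma, adjusted p = 0.6). The most abundant pair behaved otherwise: Slc7a5 differed from the WT mean by -0.57 in cKO replicate 1 and 0.0027 in cKO replicate 2, and Slc1a5 by -0.31 and 0.15.

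The monocarboxylate carriers export and import lactate and pyruvate with a proton. Of 20 carboxylate carrier genes 5 were expressed, 3 below WT in both cKO libraries (28.7% of all tested genes were) and 1 above (27.2%), with a median of -0.19. Slc16a3, the lactate exporter of glycolytic cells, had 66.0 and 47.7 FPKM in WT and 31.0 and 37.9 FPKM in cKO, a 1.65-fold lower mean (-0.70 ± 0.19, limma, adjusted p = 0.14, voom, adjusted p = 0.0642). WT replicate 1 was the highest, and the WT replicates differed by more than WT replicate 2 and cKO replicate 2 did. Slc16a1, which works in both directions, had 56.8 and 55.1 FPKM in WT and 51.7 and 50.4 FPKM in cKO (-0.13 ± 0.092, limma, adjusted p = 0.458). So it lay only slightly below WT, while Slc16a3 was further below. Slc16a6, a carrier of ketone bodies, had 17.6 and 17.5 FPKM in WT and 16.2 and 14.4 FPKM in cKO (limma, adjusted p = 0.353) and overlaps Amz2. Slc13a3, which takes up dicarboxylates with sodium, had 0.931 and 0.753 FPKM in WT and 1.75 and 1.40 FPKM in cKO (0.48 ± 0.14, limma, adjusted p = 0.149). It reached the threshold only through cKO, so its difference is bound to how it was chosen. Bsg, the partner that brings Slc16a1 and Slc16a3 to the surface, had 214 and 195 FPKM in WT and 209 and 225 FPKM in cKO and overlapped.

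Sugar carriers lay on both sides of WT. Of 29 such genes 11 were expressed, with a median of 0.0044, -0.27 in cKO replicate 1 and 0.0064 in cKO replicate 2. Slc2a1, the main glucose carrier of activated T cells, had 70.8 and 58.4 FPKM in WT and 46.3 and 64.6 FPKM in cKO (-0.23 ± 0.19, limma, adjusted p = 0.529). Slc2a3, the high-affinity glucose carrier, had 6.21 and 5.09 FPKM in WT and 4.14 and 4.86 FPKM in cKO (-0.27 ± 0.13, limma, adjusted p = 0.314). Slc2a1 overlapped, as cKO replicate 2 lay between the WT libraries, and Slc2a3 was lower in both cKO libraries, although WT replicate 2 and cKO replicate 2 were nearer to each other than the WT replicates were. Among those of inner membranes, Slc2a8 had 1.77 and 1.68 FPKM in WT and 0.828 and 1.01 FPKM in cKO and Slc2a6, given above, went the other way (0.72 ± 0.22, limma, adjusted p = 0.173). Slc2a8 reached the threshold through WT, so its direction is bound to how it was chosen. The sugar phosphate exchangers differed too: Slc37a4 was lower in both cKO libraries, and Slc37a2 had 21.8 and 18.2 FPKM in WT and 20.8 and 23.6 FPKM in cKO with overlapping groups (limma, adjusted p = 0.532).

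Mitochondrial carriers were the class with the most members, with 32 of 47 genes expressed. Both cKO libraries were below WT for 13 (40.6%, against 28.7% of all tested genes) and above for 6 (18.75%, against 27.2%), and the median was -0.062, with -0.11 in cKO replicate 1 and -0.089 in cKO replicate 2. Here the cKO libraries gave nearly the same median. The carriers that supply oxidative phosphorylation were close to WT: Slc25a5 differed by 0.035 ± 0.11 (limma, adjusted p = 0.866) and Slc25a3 by 0.087 ± 0.096 (adjusted p = 0.631). After Slc25a10, the next lowest fold change in the class was that of Slc25a15, the ornithine carrier of the urea cycle, with 6.32 and 6.67 FPKM in WT and 4.64 and 4.55 FPKM in cKO (-0.42 ± 0.087, limma, adjusted p = 0.0883, with the GC correction 0.047). The iron carriers were both lower in the cKO libraries. Slc25a28 had 19.1 and 20.0 FPKM in WT and 12.8 and 16.7 FPKM in cKO (-0.40 ± 0.14, limma, adjusted p = 0.22), and Slc25a37 had 8.45 and 8.38 FPKM in WT and 6.57 and 7.41 FPKM in cKO (-0.24 ± 0.095, adjusted p = 0.257). Slc25a37 differed less from WT than Slc25a28 in each cKO library. The least abundant carriers, Slc25a45 and Slc25a47, overlapped, with 0.945 and 1.38 FPKM in WT and 0.929 and 1.28 FPKM in cKO for the first and 0.942 and 0.999 FPKM in WT and 0.890 and 1.31 FPKM in cKO for the second.

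Carriers of nucleotide sugars and acetyl-CoA feed glycosylation, sulfation and acetylation in the Golgi and the endoplasmic reticulum. Of 28 genes placed in this class by family 22 were expressed, 7 below WT in both cKO libraries (31.8%) and 6 above (27.3%), near the 28.7% and 27.2% of all tested genes. The median was -0.026. Slc35b2, which brings the sulfate donor into the Golgi, had the lowest fold change, with 19.1 and 19.6 FPKM in WT and 13.8 and 14.4 FPKM in cKO (-0.43 ± 0.087, limma, adjusted p = 0.0875). The cKO replicates were close to each other. Its GC content was 59.8%, and with the GC correction the difference was -0.29 (adjusted p = 0.193). Slc35a4, the most abundant of the class, had 79.3 and 77.1 FPKM in WT and 55.5 and 71.2 FPKM in cKO (limma, adjusted p = 0.31) and overlaps Sra1. Slc35b1, the ATP and ADP exchanger of the endoplasmic reticulum, had 23.6 and 23.0 FPKM in WT and 20.5 and 24.8 FPKM in cKO and overlapped. Slc35e4 stood at the other end with 0.69 ± 0.16 (limma, adjusted p = 0.109, with the GC correction 0.0216).

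Carriers of inorganic ions set cell volume, pH and phosphate. Of 57 genes 20 were expressed, 8 below WT in both cKO libraries (40%, against 28.7% of all tested genes) and 2 above (10.0%, against 27.2%), with a median of -0.18. That median was -0.21 in cKO replicate 1 and -0.028 in cKO replicate 2. Slc12a2, the sodium-potassium-chloride symporter, had 11.4 and 11.8 FPKM in WT and 10.1 and 10.0 FPKM in cKO (-0.18 ± 0.084, limma, adjusted p = 0.305), with the cKO replicates close together. Slc20a1, the phosphate importer, had 28.5 and 27.5 FPKM in WT and 30.03 and 29.8 FPKM in cKO (adjusted p = 0.579), slightly higher in both cKO libraries. Slc4a2 had 41.7 and 39.4 FPKM in WT and 32.5 and 45.1 FPKM in cKO and overlaps Fastk. Slc4a11 had the highest fold change of the class, with 13.3 and 11.9 FPKM in WT and 12.7 and 17.6 FPKM in cKO, yet cKO replicate 1 lay between the WT libraries (0.24 ± 0.17, limma, adjusted p = 0.459).

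Zinc moves into the cytosol through the Slc39 family and out of it through the Slc30 family. Of 24 such genes 17 were expressed, 6 above WT in both cKO libraries (35.3%, against 27.2% of all tested genes) and 4 below (23.5%, against 28.7%), with a median of -0.0051. Slc30a1 had 3.53 and 3.09 FPKM in WT and 4.88 and 4.52 FPKM in cKO (0.40 ± 0.10, limma, adjusted p = 0.125, voom, adjusted p = 0.0735). Mt1, a zinc-binding metallothionein and, like Slc30a1, a target of the zinc sensor Mtf1, had 48.5 and 53.0 FPKM in WT and 74.1 and 62.7 FPKM in cKO (0.42 ± 0.12, limma, adjusted p = 0.161). Both were higher in each cKO library than in either WT library, and neither passed the test. Slc39a7, which releases zinc from the endoplasmic reticulum, had 7.35 and 7.26 FPKM in WT and 11.95 and 8.55 FPKM in cKO (0.42 ± 0.16, limma, adjusted p = 0.24), with cKO replicate 1 well above cKO replicate 2. Slc39a8, a zinc and manganese importer, had 2.71 and 3.26 FPKM in WT and 2.09 and 1.98 FPKM in cKO (-0.39 ± 0.12, limma, adjusted p = 0.162). The surface importers Slc39a6 and Slc39a10 had 30.7 and 28.3 FPKM in WT and 32.7 and 30.8 FPKM in cKO and 11.4 and 9.85 FPKM in WT and 11.8 and 11.4 FPKM in cKO, differences of 0.10 and 0.12. Their groups were apart by no more than the spread within a genotype. Among the other metals, with 5 of 9 genes expressed and a median of 0.062, Slc41a1, a magnesium carrier, had 39.5 and 30.5 FPKM in WT and 46.4 and 58.5 FPKM in cKO (0.57 ± 0.18, limma, adjusted p = 0.174). Slc11a2, the iron importer of endosomes and the plasma membrane, had 8.77 and 8.57 FPKM in WT and 5.89 and 6.83 FPKM in cKO (-0.40 ± 0.10, limma, adjusted p = 0.125). Tfrc, the transferrin receptor that delivers iron to those endosomes, had 134 and 129.6 FPKM in WT and 154 and 140.1 FPKM in cKO (adjusted p = 0.44).

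Of 8 nucleoside and nucleobase carriers 5 were expressed, with a median of -0.070. Slc43a3, a purine nucleobase carrier, had 15.7 and 16.7 FPKM in WT and 9.28 and 12.2 FPKM in cKO (-0.56 ± 0.14, limma, adjusted p = 0.125). Slc29a1, the main nucleoside carrier of the plasma membrane, had 51.2 and 56.2 FPKM in WT and 35.6 and 42.4 FPKM in cKO (-0.46 ± 0.13, limma, adjusted p = 0.143). Slc29a3, its lysosomal relative, had 34.4 and 29.3 FPKM in WT and 35.5 and 40.3 FPKM in cKO, higher in both cKO libraries (0.25 ± 0.13, adjusted p = 0.344). So the surface and the lysosomal carrier lay on opposite sides of WT, without passing the test. Among 5 vitamin carriers of 13 genes, Slc19a1, which imports reduced folate, had 51.9 and 51.3 FPKM in WT and 31.1 and 43.6 FPKM in cKO (-0.47 ± 0.17, limma, adjusted p = 0.228), and Slc19a2, a thiamine carrier, had 7.20 and 6.82 FPKM in WT and 7.66 and 8.92 FPKM in cKO (adjusted p = 0.336). The vitamin class had a median of -0.085, -0.29 in cKO replicate 1 and 0.055 in cKO replicate 2. Of 21 genes for lipids, choline and bile acids 5 were expressed, with a median of -0.058 and fold changes from -0.19 to 0.067. Slc10a7 had the lowest fold change there (2.32 and 2.46 FPKM in WT and 2.09 and 1.85 FPKM in cKO, adjusted p = 0.373). The most abundant, Slc10a3, had 18.5 and 18.7 FPKM in WT and 15.1 and 19.4 FPKM in cKO, and the highest, Slc44a2, a choline carrier, had 9.06 and 8.93 FPKM in WT and 8.35 and 10.7 FPKM in cKO. Both overlapped. Of 52 genes for organic ions, osmolytes and vesicular transmitters only 3 were expressed, led by the taurine carrier Slc6a6 at 52.6 and 46.9 FPKM in WT and 46.5 and 50.3 FPKM in cKO with overlapping groups. Finally, 3 genes bear the name but encode no transporter, and of these Slc9a3r1, a scaffold that anchors exchangers to the cytoskeleton, had 56.5 and 56.4 FPKM in WT and 41.0 and 51.9 FPKM in cKO (-0.28 ± 0.14, limma, adjusted p = 0.322).

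**Figure D5:**
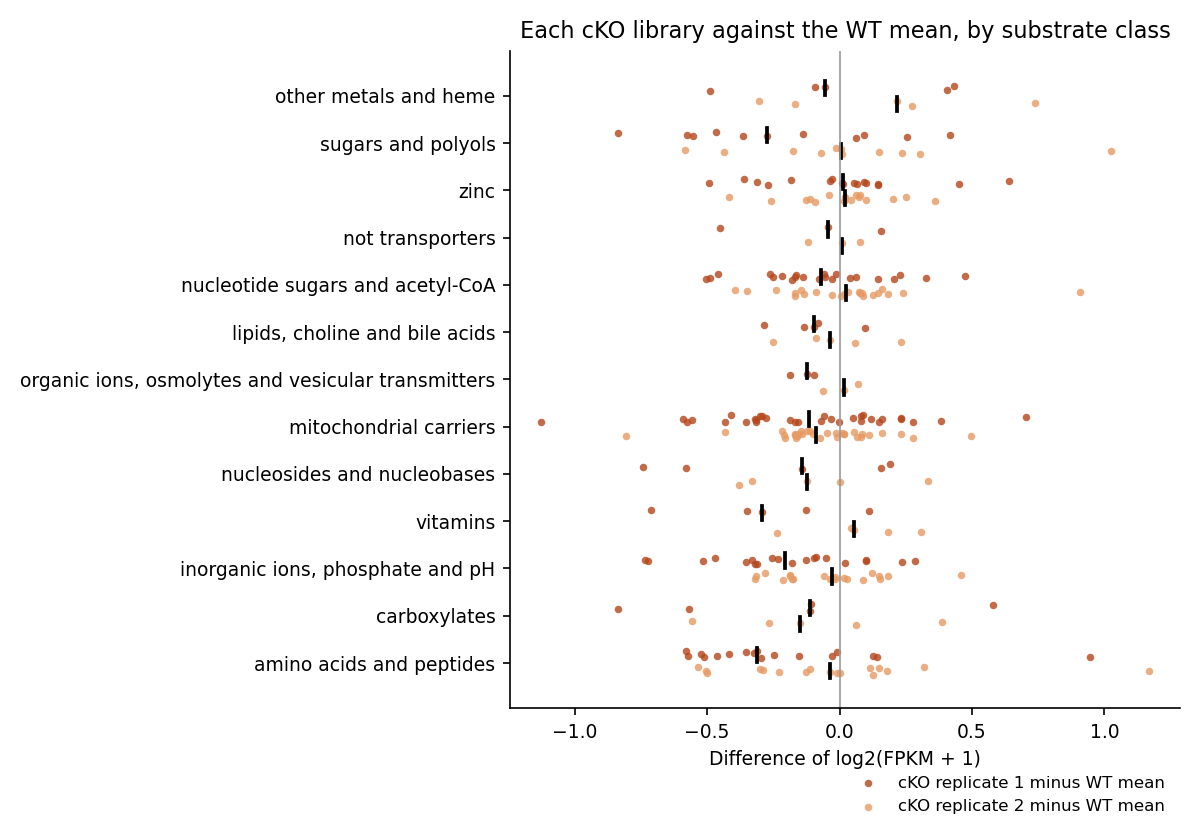
Difference of log2(FPKM + 1) from the WT mean (x axis) for each gene (points) in cKO replicate 1 (dark) and cKO replicate 2 (light), by substrate class (y axis), with medians as bars. The medians of amino acid, ion, sugar and vitamin carriers lie at -0.31, -0.21, -0.27 and -0.29 in cKO replicate 1 and at -0.035, -0.028, 0.0064 and 0.055 in cKO replicate 2. The median GC content of these classes was 53.4%, 53.6%, 53.0% and 53.8%, against 50.9% over the 150 genes. With the GC correction their median log2 fold changes (cKO minus WT) were -0.19, -0.11, 0.031 and -0.043.

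The genes that carriers depend on were read from the same fit. Of 16 tested sodium and proton pump subunits, which maintain the gradients that symporters use, limma called 1 lower and 0 higher. Over all tested genes 0.256% were called lower and 0.814% higher. The pump gene called lower was Atp1b1, a beta subunit of the sodium pump, with 4.71 and 4.48 FPKM in WT and 2.25 and 2.33 FPKM in cKO (-0.77 ± 0.093, limma, adjusted p = 0.0436, voom, adjusted p = 0.0169). The more abundant beta subunit Atp1b3 had 67.1 and 70.1 FPKM in WT and 71.0 and 70.8 FPKM in cKO (limma, adjusted p = 0.79), with the groups apart by less than the spread of the WT replicates. Of 20 tested carriers that do not bear such a name limma and voom called 0, with 1 lower and 0 higher at an unadjusted p under 0.05, and their median was -0.15. Among 22 tested regulators both called 0, with 2 lower and 0 higher at an unadjusted p under 0.05 and a median of -0.047. Over all tested genes 10.3% were lower and 9.56% higher at that unadjusted p, and the median was -0.0034. By voom 2.49% of all tested genes were called lower and 2.69% higher. Hif1a, which drives Slc2a1 and Slc16a3 under low oxygen, had 83.9 and 83.8 FPKM in WT and 82.4 and 77.5 FPKM in cKO (limma, adjusted p = 0.699), and Atf4 had 172 and 171 FPKM in WT and 175 and 189 FPKM in cKO (adjusted p = 0.654). Txnip, which removes Slc2a1 from the surface, had 10.9 and 11.5 FPKM in WT and 9.77 and 10.4 FPKM in cKO (adjusted p = 0.423).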

How the data were processed

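The deposited table gives FPKM per gene, scaled by the authors to gene length and library total, with the gene length in bases as another column. The submitters' processing notes list featureCounts 1.5.0-p3 for gene counting, with GRCm38 and mm10 as builds. Which aligner, strand setting and FPKM tool were used, and how reads matching several places were treated, is not given in the sources used here. Hence 19 of the 150 genes that overlap another expressed coding gene, and genes with pseudogene copies, are uncertain. Multiplying FPKM by length gave whole reads after scaling by library for 100% of values, within 0.01 read, and voom used these reads. Replicates differed by more than sampling noise (chi-square per degree of freedom 5.59 for the WT libraries, 36.3 for the cKO libraries).

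The test was limma 3.58.1 (R 4.3.3) on log2(FPKM + 1), with a variance trend, over 10562 genes averaging 1 FPKM or more, Benjamini-Hochberg adjusted, two-sided, without a block. It was also run on simulated reads with the same spread in both genotypes and no GC trend. Here the cKO libraries spread more than the WT libraries, and their difference followed GC content. That run therefore does not show how the test performs on these data. GC content came from the longest GENCODE M21 transcript, promoters from RefSeq. Of the 150 genes 134 had the same start and end in GENCODE M21.

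The members, lists, markers and motifs were chosen with earlier results of these data known. Named are genes called by limma or voom, the most abundant, highest and lowest gene of each class of at least 5, those next to the threshold and a fixed set. Slc2a8, Slc16a10, Slc25a15, Slc25a28 and Slc25a37 were named after their values were seen, as were the related genes with values. The values of 1 gene that this rule names are not reported here. The 18 alternatives run were other pseudocounts, filters, scalings and variance models, a replicate block, leaving out each library, voom, protein-coding genes only and a GC correction.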

Additional observations from a re-analysis of the deposited data

How the results depend on the processing

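limma called 0 of the 150 genes in either direction with pseudocounts of 0.1 and 0.5, with no filter (0 of 21807 genes in all), with a filter of 5 FPKM (103 genes kept), with TPM, median-of-ratios or quantile scaling, and with a robust or trendless variance. Genes called higher and lower were 2 and 4 by voom, 1 and 5 among protein-coding genes only, and 3 and 4 with the GC correction, which with the replicate block gave 1 and 1. With the correction and the block, 1.12% of all genes were called higher and 0.407% lower. Slc25a10 was the 1 lower gene with the replicate block (0.691% of all genes lower), where 0 were higher (1.46%). The replicate numbers do not show that the samples were paired: deviations of same-numbered libraries correlated at -0.093 over tested genes, with 2 pairs. Without the GC correction the block changed no other call among the 150. With it, the block ended 5 of 7 calls, and Slc25a10 (lower) and Slc35e4 (higher) stayed past the threshold. Leaving out each library in turn gave 0 to 8 higher and 0 to 40 lower, with 8 and 40 without cKO replicate 2, 2 and 1 without cKO replicate 1, 1 (Slc15a3) and 0 without WT replicate 1 and 0 and 0 without WT replicate 2, and medians from -0.13 to -0.011. The median was -0.16 with TPM, which lowers all tested genes (median -0.092). Signs turned with TPM for Slc25a5 (-0.058), Slc25a3 (-0.00605) and Slc44a2 (-0.019), with quantile scaling for Slc25a5 (-0.18), and with the GC correction, with or without the block, for Slc1a5 (0.017), Slc4a2 (0.040) and Slc25a45 (0.025). Leaving out a library gave log2 fold changes from -0.31 to 0.15 for Slc1a5, -0.57 to 0.0027 for Slc7a5, -0.47 to 0.0079 for Slc2a1, -0.31 to 0.15 for Slc4a2, -0.18 to 0.089 for Slc35b1, -0.29 to 0.058 for Slc10a3, -0.12 to 0.043 for Slc6a6, -0.18 to 0.11 for Slc25a45, -0.012 to 0.083 for Slc25a5, -0.096 to 0.23 for Slc44a2 and -0.060 to 0.23 for Slc25a47, none of them called with all libraries. Apart from the TPM shift, the cause of these changes was not tested. The 2 planned count models were not run on the recovered reads, because the deposited values are FPKM. So voom was the only test made of those reads.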
